A study of Drosophila melanogaster with 3 samples.

Results

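The peaks far from any promoter numbered 785 of the 4336 peaks in the thresholded set of the tap-eGFP ChIP-seq experiment, a share of 18.1% (Wilson 95% interval 16.99 to 19.3%). A peak was counted as far when its summit lay more than 5000 bp from every annotated transcription start site (TSS) of any gene, transposable elements aside, and outside every exon. Of the far summits, 577 lay in introns and 208 between genes. Within the thresholded set, the rule split peaks by position and no measured value. The set itself had passed an irreproducible discovery rate threshold. Strength and recovery in the replicates were not used in the split, whereas long host genes and wide gaps follow from it, and so can a lack of promoter and coding sequence.

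Drosophila melanogaster embryos of both sexes, 6 to 16 h old, were collected in 3 biological replicates from 1 transgenic line that stably expresses Tap with GFP fused to its C-terminal end. Chromatin was precipitated with an antibody against GFP, and the replicates formed a single group, with no untagged or mutant embryos among the samples analysed here. The notes name a control alignment for peak calling, which was not analysed here. Whole embryos were used, so a peak cannot be assigned to a cell type. The deposited lists hold peaks and no read counts, so depth is unknown. The thresholded set comes from the pooled replicates, so spread over replicates was measured in their own lists, each cut to its 4336 strongest peaks.

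Tap (target of Pox-neuro) is a basic helix-loop-helix transcription factor of the neurogenin family, and factors of this class bind E-boxes, sites of the form CANNTG. In animal genomes, enhancers that drive expression in a given cell type often lie in introns or between genes, and those of developmental regulators may lie many kilobases from the promoter they act on. In flies, genes that encode transcription factors, cell surface receptors and adhesion molecules tend to be long and to be surrounded by such elements.

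The sequences of 3 intronic and 3 intergenic far peaks, the strongest of each kind on the chromosome arms shown, are printed here because they show the base composition and the short motifs that the later results turn on. Each is the plus strand of the dm6 assembly in the RefSeq copy, 200 bp with the summit at its centre. Capitals mark the 5 hexamers that were most over-represented at far summits relative to their own flanks, as described with the hexamer results.
tara, chr3R:16236863-16237062, plus strand: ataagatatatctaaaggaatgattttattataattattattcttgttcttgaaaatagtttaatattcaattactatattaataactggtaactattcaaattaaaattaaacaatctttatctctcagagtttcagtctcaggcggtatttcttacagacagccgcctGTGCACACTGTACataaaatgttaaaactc
Gug, chr3L:8458228-8458427, plus strand: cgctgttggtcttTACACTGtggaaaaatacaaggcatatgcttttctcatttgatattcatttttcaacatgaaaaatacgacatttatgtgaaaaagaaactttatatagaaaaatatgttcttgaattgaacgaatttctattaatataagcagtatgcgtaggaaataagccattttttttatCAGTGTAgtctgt
Hr4, chrX:1947646-1947845, plus strand: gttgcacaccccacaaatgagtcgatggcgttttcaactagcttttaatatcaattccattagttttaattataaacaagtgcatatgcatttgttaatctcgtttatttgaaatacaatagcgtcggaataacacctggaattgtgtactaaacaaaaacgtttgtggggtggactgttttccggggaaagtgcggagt
CG44362 to CG7560, chr3L:11418364-11418563, plus strand: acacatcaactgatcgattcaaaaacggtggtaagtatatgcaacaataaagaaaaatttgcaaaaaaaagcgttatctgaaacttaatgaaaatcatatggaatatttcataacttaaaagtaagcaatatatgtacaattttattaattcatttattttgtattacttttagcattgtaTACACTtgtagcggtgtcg
NijA to CG43245, chr3L:10752681-10752880, plus strand: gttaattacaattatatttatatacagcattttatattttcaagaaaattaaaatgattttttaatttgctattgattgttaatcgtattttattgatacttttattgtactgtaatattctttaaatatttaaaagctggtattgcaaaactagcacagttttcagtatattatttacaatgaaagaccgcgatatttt
RFeSP to chinmo, chr2L:1638597-1638796, plus strand: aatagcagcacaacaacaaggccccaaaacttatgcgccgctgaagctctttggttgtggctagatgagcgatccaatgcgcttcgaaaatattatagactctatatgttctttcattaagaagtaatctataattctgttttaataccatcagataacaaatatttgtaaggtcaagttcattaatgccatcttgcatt

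The tara window held 3 overlapping matches to the leading hexamers on the right of the summit, and the Gug window held 4 that made up 1 site on each side. These sites in Gug read towards the summit from both sides. The CG44362 to CG7560 window held 1 match, and those of Hr4, NijA to CG43245 and RFeSP to chinmo held none. E-boxes numbered 5 in the Hr4 window, 3 in that of CG44362 to CG7560, 2 in Gug, and 0 in the other 3. The GC content of the windows was 26.5% (tara), 28.5% (Gug), 37.5% (Hr4), 26.5% (CG44362 to CG7560), 20.5% (NijA to CG43245) and 36% (RFeSP to chinmo).

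Far peaks made up a smaller share of the thresholded set than of the weaker peaks. They were 785 of 4336 thresholded peaks (18.1%), against 7290 of the 25664 weaker peaks of the pooled list (28.4%; odds ratio 0.557, Fisher's exact test, adjusted p = 2.44e-47 over 13 comparisons of peak classes). In the replicates' own strongest peaks, 711, 703 and 749 were far, which gave 16.4%, 16.2% and 17.3% (16.6 ± 0.567%, SD, n = 3). Peaks are the units of Fisher's test here and in the comparisons that follow, and summits close together were each counted. Its p-values thus describe these lists and not the spread between embryos. Each 5 to 10 kb, 10 to 20 kb and over 20 kb distance class was lower in the thresholded set, at 10.01%, 5.95% and 2.14%, against 15.4%, 9.54% and 3.48% among the weaker peaks.

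**Figure D1:**
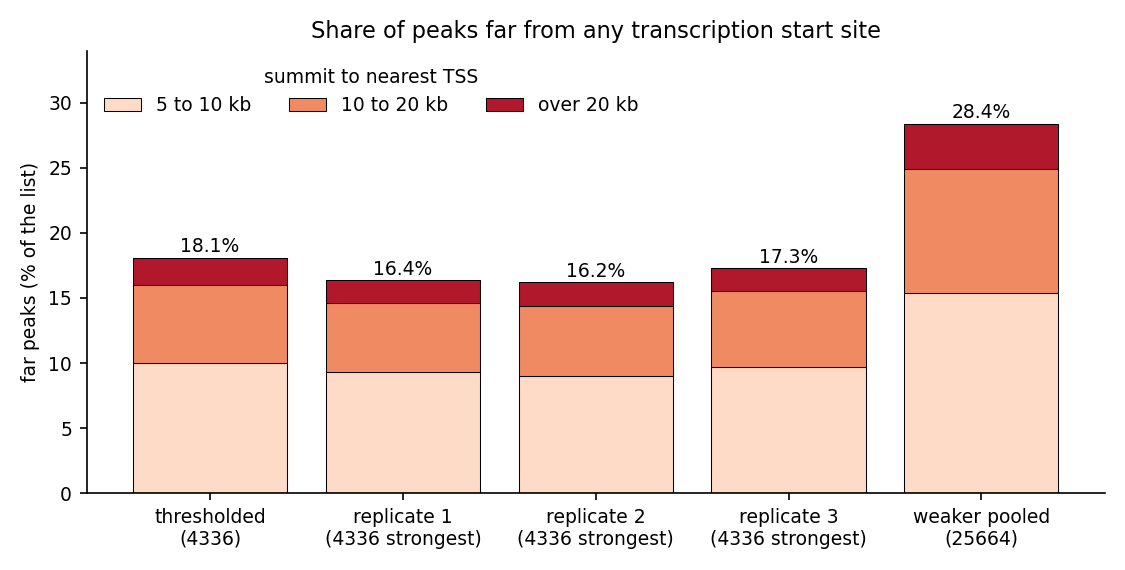
Bars give the far peaks as a percentage of each list, split by the distance from the summit to the nearest TSS. The thresholded set stands at 18.1%, the 4336 strongest peaks of the replicates at 16.2 to 17.3%, and the weaker pooled peaks at 28.4%.

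The distance to the nearest TSS had a median of 8997 bp, with quartiles of 6721 and 13946 bp. It exceeded 10 kb for 351 far peaks, 20 kb for 93 and 30 kb for 28. The peak just inside the limit lay 5006 bp from a TSS with a signal of 650 (the peak caller's value, for which no unit is stated), and the one just outside at 4994 bp had a signal of 273. Within 100 bp of the limit there were 17 peaks inside and 19 outside. The far peaks were 146 on arm 2L, 102 on 2R, 197 on 3L, 194 on 3R, 145 on X and 1 on chromosome 4. Per megabase this was 6.21, 4.03, 7.01, 6.05, 6.16 and 0.742, so that the density was lowest on chromosome 4 and, among the long arms, on 2R.

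Far peaks were weaker than the other thresholded peaks. Of the far peaks, 325 (41.4%) had a signal above the median of the thresholded set, against 1843 of the 3551 others (51.9%; odds ratio 0.655, Fisher's exact test, adjusted p = 7.72e-07). Against the 1660 nearer distal peaks, those over 500 and up to 5000 bp from a TSS and outside exons, the share was 41.4% against 51.1% (Fisher's exact test, adjusted p = 3.42e-05). The median signal was 223 for far peaks, with a range of 153 to 2191, and 254 for the others. In the replicates' own lists the share above the median was 44.0 ± 0.994% for far peaks and 51.2 ± 0.161% for the others (SD, n = 3). The difference of −7.15 ± 1.15 percentage points had the same sign in 3 of 3 replicates (exact sign-flip permutation test, two-sided p = 0.25, the smallest that 3 replicates allow). Of the peaks at 5 to 10 kb, 10 to 20 kb and over 20 kb, 42.6%, 39.1% and 41.9% were above the median, with overlapping Wilson intervals.

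Recovery in the replicates depended on the replicate and on how many peaks of each list were read. Of all 4336 thresholded peaks, 49.4% had a summit within 200 bp among the 4336 strongest peaks of all 3 replicates, and this held for 360 far peaks (45.9%) against 1781 others (50.2%). The difference passed Fisher's exact test narrowly when adjusted over the all-replicate count and the 3 single-replicate tests (adjusted p = 0.0401), and not over all 13 class comparisons (adjusted p = 0.0559). In replicate 1, 79.6% of far peaks and 83.6% of the others were found (Fisher's exact test, adjusted p = 0.0151 over the same 4 tests). In replicate 2 the shares were 76.1% and 82.5% (Fisher's exact test, adjusted p = 0.000201). In replicate 3 they were 67.8% and 67.02% (Fisher's exact test, adjusted p = 0.706). The call for all 3 rested on which replicates were read. Presence in both others was 52.2% against 55.6% without replicate 1 and 54.1% against 57.0% without replicate 2 (Fisher's exact tests, adjusted p = 0.128 and 0.188). Without replicate 3 it was 65.0% against 71.8% (Fisher's exact test, adjusted p = 0.000328).

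The direction also turned with signal and with the length of the lists. Within the peaks above the median signal, 84.6% of far peaks were found in all 3, against 81.3% of the others, and within those below it 18.5% against 16.5% (Fisher's exact tests, unadjusted p = 0.184 and 0.327), so the lower overall share did not hold within either level of signal. When the whole list of each replicate was read, 738 far peaks (94.0%) were present in all 3, against 3160 of the others (89.0%), which reverses the direction. The far peaks missing from the whole lists numbered 2 in replicate 1, 5 in replicate 2 and 40 in replicate 3. Spearman's rho of the signals of far peaks was 0.71 between replicates 1 and 2 over 778 peaks, 0.46 between 1 and 3 over 743 and 0.43 between 2 and 3 over 740. For the same pairs, promoter peaks (within 500 bp of a TSS) gave 0.80, 0.58 and 0.56. These values are descriptions, since the peaks of a pair of lists share their libraries.

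Far summits lay in narrow AT-rich dips. The mean GC content of the 100 bp at the summit was 32.0 ± 8.77% (SD over 785 peaks), and 41.3% in windows of the same size 500 bp to either side. The other thresholded peaks had 32.5% at the summit and 42.9% in the flanks. The share of peaks below the median GC of 31.0% was 48.5% for far peaks and 49.2% for the others (Fisher's exact test, adjusted p = 0.815). In the flanks, the replicates' own far peaks were lower in GC than the others by −1.70 ± 0.0993 percentage points, in 3 of 3 replicates (exact sign-flip permutation test, p = 0.25, the smallest possible). Replicate 3 stood apart at the summit, where its far peaks had a mean GC of 36.5%, against 31.5% and 31.8% in replicates 1 and 2. In 50 bp steps the far peaks had 31.0% at the summit and 45.7% and 44.9% at 200 bp on the left and right. Promoter peaks had 41.7% and 41.6% at these shoulders, while 1000 bp to the right far peaks had 39.7% and promoter peaks 43.4%.

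**Figure D2:**
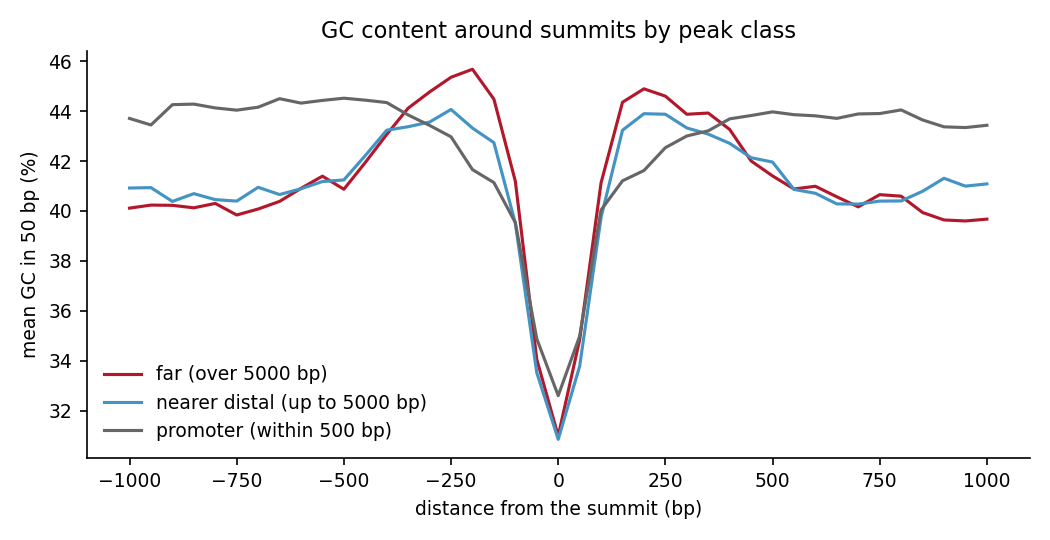
Lines give the mean GC percentage of 50 bp windows by distance from the summit for far, nearer distal and promoter peaks. All 3 classes dip at the summit, to 31.0% in far, 30.8% in nearer distal and 32.6% in promoter peaks, and far peaks have the highest shoulders about 200 bp away.

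None of 3 measures separated intronic from intergenic far peaks past the threshold. A signal above the median was seen in 41.6% of the intronic and 40.9% of the intergenic peaks, and presence in all 3 replicates in 46.3% and 44.7% (Fisher's exact tests, adjusted p = 0.870 and 0.815). GC below the median was seen in 50.6% of intronic and 42.8% of intergenic peaks, a difference of 7.82 percentage points that did not pass the test (Fisher's exact test, adjusted p = 0.102).

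Of all hexamers, each counted once with its reverse complement and read within 100 bp of the summit, 4 were more frequent and 6 less frequent in far peaks than in the other thresholded peaks (0.192% and 0.288% of those tested; Fisher's exact test, Benjamini-Hochberg adjusted p under 0.05). The more frequent were ACAAGG (7.26% of far peaks against 3.69% of the others), AAGGGG (10.7% against 6.70%), AATGGG (13.1% against 8.25%) and AGTGCA (22.9% against 16.5%). The less frequent included CGATAG (2.68% against 7.29%, Fisher's exact test, adjusted p = 0.000654), TATCGA (52 of 785 far peaks against 426 of the 3551 others) and ATCGAT (4.20% against 8.36%). These overlap the DNA replication-related element of fly promoters. AGAGCG and AGAGAG were also less frequent, and so was TCGCGA, present in 0 of 785 far peaks, which allows a share of up to 0.382%, and in 1.80% of the others. TCGCGA falls outside the rule for named hexamers and is given to complete the count.

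The contrast was with promoters. Against promoter peaks alone, 42 hexamers were more frequent and 60 less frequent in far peaks, and CGATAG stood at 2.68% against 11.0%. Against nearer distal peaks, 0 hexamers passed Fisher's exact test in either direction, with 72 higher and 51 lower at an unadjusted p under 0.05. The lack of calls does not show that the classes were alike. CGATAG was at 3.49% and AGTGCA at 19.9% in the nearer distal peaks. TATCGA stood at 7.47% in nearer distal and 16.5% in promoter peaks, and ATCGAT at 5.30% and 11.5%. ACAAGG and AAGGGG were about as low in nearer distal peaks (3.73% and 6.39%) as in promoter peaks (3.64% and 7.05%). AGAGCG stood at 4.33% in far, 7.29% in nearer distal and 9.91% in promoter peaks, and AGAGAG at 7.13%, 10.1% and 12.9%. Among peaks above the median signal, which are both fewer and stronger, 0 passed in either direction, with 87 higher and 64 lower at an unadjusted p under 0.05. In the thresholded peaks found in both other replicates, 3 were higher and 1 lower without replicate 1, 2 and 0 without replicate 2, and 0 and 2 without replicate 3. With the comparison made within 10 classes of summit GC, 5 were higher and 5 lower, among them 4 and 5 of those named above.

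None of the 10 E-boxes was called between far and other peaks (0 by Fisher's exact test after adjustment, 4 at an unadjusted p under 0.05). CAAGTG was found in 14.6% of far peaks and 10.8% of the others, CAATTG in 10.4% and 8.14%, and CAGATG in 9.81% and 6.87%. CAGCTG was found in 4.97% of far peaks and 8.22% of the others. Under other settings 2 of these passed. CAGATG was higher within 150 bp (ratio 1.44, Fisher's exact test, adjusted p = 0.0261) and against promoter peaks (1.59, Fisher's exact test, adjusted p = 0.0393). CAGCTG was lower within 150 bp (0.631, Fisher's exact test, adjusted p = 0.00347) and against promoter peaks (0.501, Fisher's exact test, adjusted p = 0.00237). At least 1 E-box lay within 100 bp in 65.4% of far peaks, against 59.7% of the others. The Wilson intervals were 61.95 to 68.6% for far peaks and 58.05 to 61.3% for the others. In the replicates' own lists these shares were 66.4 ± 2.90% and 60.2 ± 4.18% (SD, n = 3). The far share was the higher in each replicate, at 63.3% against 56.8%, 66.9% against 59.0% and 69.03% against 64.9%. The flanks of the same far peaks held an E-box in 68.7% (Wilson interval 65.3 to 71.8%). Summits and flanks are windows of the same peaks, so the overlap of their intervals does not measure the difference. Far summits and their flanks stood at 63.3% and 68.4% in replicate 1, 66.9% and 67.9% in replicate 2, and 69.03% and 68.6% in replicate 3.

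Relative to their own flanks, the hexamers called higher at far summits were mostly AT-rich and those called lower mostly GC-rich. Of all hexamers, 232 were more frequent at the summit (11.2%) and 318 less frequent (15.3%; exact McNemar test across far peaks, adjusted p under 0.05). Of the 232, 154 had at most 1 G or C, 74 had 2 or 3 and 4 had 4 or more, whereas 235 of the 318 had 4 or more. ATATAT was found at 26.8% of far summits and 14.01% of their flanks, and AAAAAA at 46.2% and 38.2%. The largest ratios among the named hexamers belonged to GTGCAC (11.5% of summits against 3.06% of flanks, ratio 3.75, exact McNemar adjusted p = 3.55e-08), CTGTAC (8.41% against 2.68%), ACCTAT (7.26% against 2.55%), ACACTG (17.6% against 6.88%) and AGTGTA (20.8% against 8.15%, exact McNemar adjusted p = 2.89e-10). AGTGCA, the hexamer that was also higher in far than in other peaks, stood at 22.9% against 10.6%. At the other end were CCCCCG (1.53% of summits against 7.64% of flanks) and CCAGCC (2.80% against 10.7%). In the far peaks found in both other replicates, 86 were higher and 59 lower without replicate 1, 82 and 54 without replicate 2, and 202 and 270 without replicate 3, with fewer peaks in each.

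None of the 10 E-boxes was higher at far summits than in flanks 500 bp away (0 by the exact McNemar test, also at an unadjusted p under 0.05) and 3 were lower. The lower ones were CACCTG (3.18% of summits against 6.62% of flanks, exact McNemar adjusted p = 0.0119), CAGCTG (4.97% against 8.28%, exact McNemar adjusted p = 0.0402) and CAACTG (10.1% against 14.3%, exact McNemar adjusted p = 0.0481). Each of the 3 lost the call under some of the other settings. CAGATG was higher than in flanks at 300 bp (ratio 1.57, exact McNemar adjusted p = 0.0279) and CATATG than in flanks at 1000 bp (1.76, exact McNemar adjusted p = 0.0107). The GC dip at the summit moves with these counts, and its part in them was not tested.

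Any of the 5 leading hexamers was present at 45.0% of far summits, against 20.3% of their flanks. These hexamers were chosen for their summit-to-flank ratio in these peaks, so the direction is fixed by the choice and the shares are descriptions. In the replicates' own far peaks, which largely overlap the thresholded set, the shares were 43.4 ± 0.523% and 21.4 ± 1.94% (SD, n = 3). Nearer distal peaks had them at 44.6% and promoter peaks at 37.8%. Far peaks above the median signal had them at 50.5% of summits and 18.2% of flanks, and those below it at 41.1% and 21.7%. Their position was not at the summit itself: in 40 bp steps they were found in 14.3% and 15.2% of far peaks 80 bp to the left and right, and in 6.62% at the summit. E-boxes ranged over 17.2 to 25.2% in such steps, with 19.7% at the summit.

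**Figure D3:**
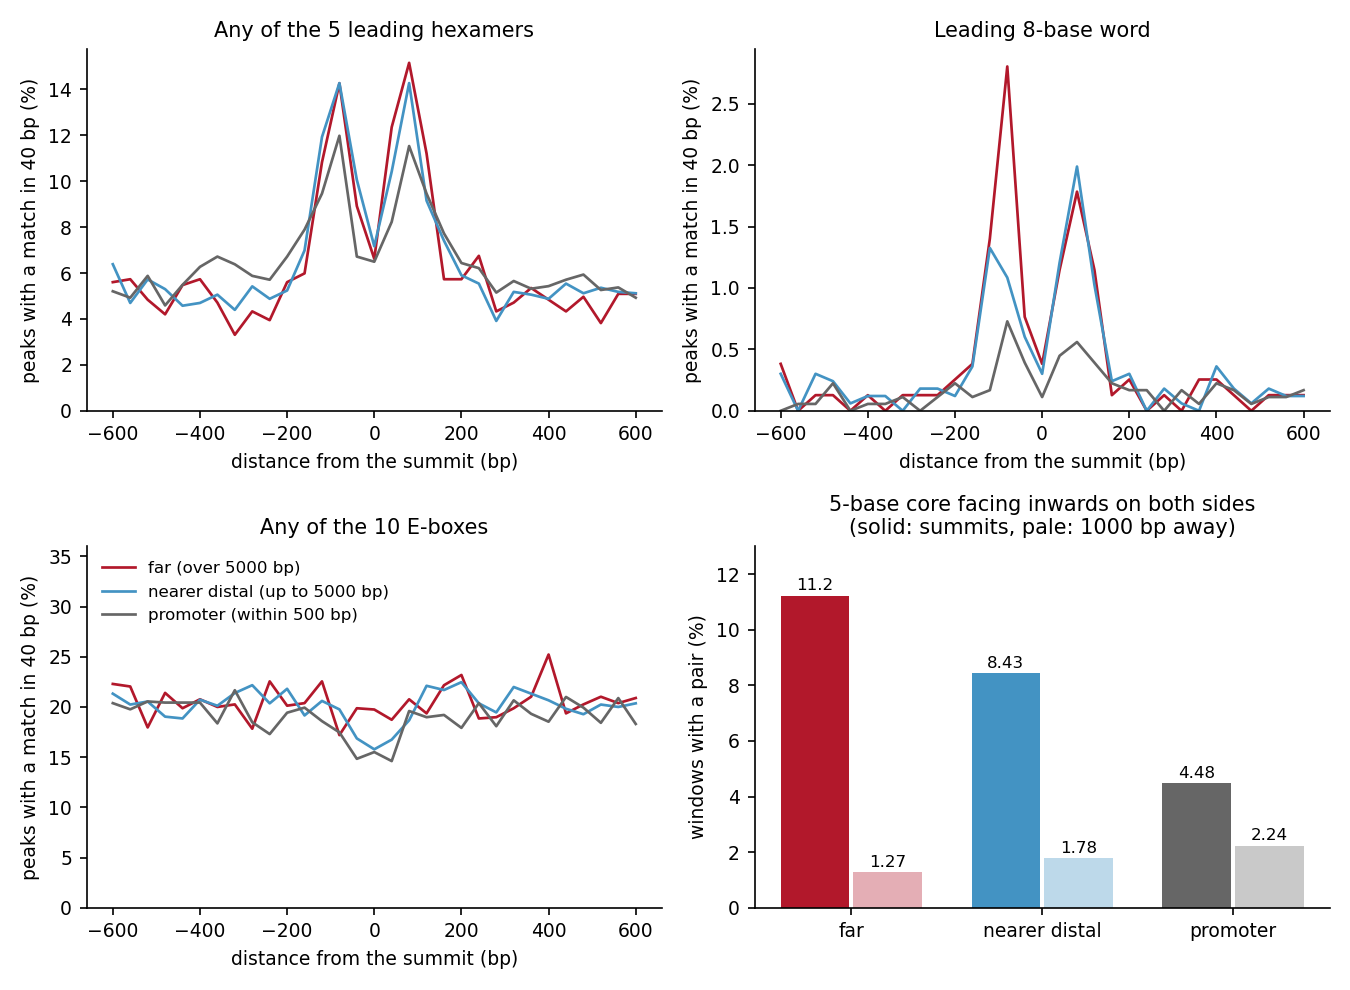
The upper panels and the lower left panel give the percentage of peaks with a match in each 40 bp step by distance from the summit, for far, nearer distal and promoter peaks. The leading hexamers and the leading 8-base word rise about 80 bp to either side of the summit and dip at it, E-boxes show no such rise, and the lower right panel gives the windows with the 5-base core facing inwards on both sides, 11.2% at far summits against 1.27% of windows 1000 bp away.

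Longer words were then counted, a description chosen after these values were seen and given with no test. Among 8-base words with a start within 140 bp of the summit, ranked by the count at summits minus that in flanks over the square root of their sum plus 5, CACTGAGA led. It was in 71 of 785 far peaks (9.04%, Wilson interval 7.23 to 11.3%), against 6 (0.764%) in windows of the same total length 1000 bp away. The word was picked from 30926 by this contrast in these peaks, so the direction is fixed by the choice. In the replicates' own far peaks, which largely overlap the thresholded set, it stood at 8.55 ± 0.305% of summits and 0.972 ± 0.151% of flanks (SD, n = 3). It was present in 7.17% of nearer distal and 2.80% of promoter summits. The words next in order, CTCAGTGC, TACACTGA, GAGAGAAA and TGAGAGAA, overlap it or its other strand. By count alone ATTTTATA was in more far summits (84, against 30 in flanks), and by ratio TACACTGA stood higher (42 against 3). The 9 sites of the 7 strongest far peaks that hold it on the arms shown are printed to show what the sites share beyond the word. Each is written in the direction of the word, which is in capitals.
CG43401 to CG43402, chr2L:1433961-1434000, minus strand: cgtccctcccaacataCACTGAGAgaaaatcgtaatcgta
CG10283, chr2L:18477677-18477716, minus strand: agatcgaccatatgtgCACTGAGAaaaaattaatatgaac
CG6959, chr3R:11849890-11849929, minus strand: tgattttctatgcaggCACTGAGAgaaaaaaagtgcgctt
Fas3, chr2L:18325206-18325245, plus strand: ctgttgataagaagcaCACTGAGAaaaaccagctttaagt
pnt, chr3R:23326396-23326435, plus strand: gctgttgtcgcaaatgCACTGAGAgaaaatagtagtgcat
gukh, chr3R:18995778-18995817, plus strand: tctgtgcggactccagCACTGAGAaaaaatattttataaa
gukh, chr3R:18995892-18995931, minus strand: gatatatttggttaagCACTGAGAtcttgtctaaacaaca
Cyp6t1 to GCS2alpha, chrX:21593983-21594022, plus strand: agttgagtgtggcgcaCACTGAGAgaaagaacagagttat
Cyp6t1 to GCS2alpha, chrX:21594145-21594184, minus strand: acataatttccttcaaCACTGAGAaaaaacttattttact

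Over all 74 sites in the 71 far peaks, the base before the word was G in 64.9% and A in 32.4%, and the base before that was T in 63.5%. After the word came G in 51.4% or A in 43.2%, and then A in 87.8%, 89.2% and 79.7% of sites at the next 3 positions. The word had a direction: in 71 of the 74 sites the summit lay on its 3′ side, at a median of 76 bp, and in 3 on its 5′ side. The same held for 119 of 125 sites in nearer distal peaks and 41 of 50 in promoter peaks. None of the 71 far peaks was in an annotated transposable element, and of all 785 far peaks 5 were. The 71 peaks fell in 43 host genes and in intergenic sequence. The median signal was 239 in far peaks with the word and 222 in the 714 without it.

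The core CACTG, which begins the word CACTGAGA, could face the summit from both sides. Within 140 bp of far summits 430 copies read towards the summit and 300 away from it (58.9% towards), and in windows 1000 bp away 330 read towards the window's centre and 377 away (46.7%). The copies at far summits include those in the 74 sites of the word, of which 71 had the summit on their 3′ side. The direction of the core outside the word was not counted. A copy on each side reading towards the summit was present in 88 far peaks (11.2%, Wilson interval 9.19 to 13.6%), against 41 (5.22%) with a copy on each side reading away. In the windows 1000 bp away the inward pair was present in 1.27%. In the replicates' own far peaks, inward pairs were at 11.1 ± 0.959% of summits and 1.25 ± 0.100% of distant windows (SD, n = 3). Nearer distal summits had inward pairs at 8.43% and pairs reading away at 6.93%. Promoter summits had them at 4.48% and 4.54%, so inward pairs were no more frequent there than pairs reading away. The copies of an inward pair were a median of 163 bp apart at far summits, with quartiles of 147 and 174 bp. The median was 158.5 bp at nearer distal summits, 158 bp at promoter summits and 136 bp in windows 1000 bp from far summits. The limit of 140 bp to either side bounds these spacings. Far peaks above the median signal had inward pairs more often than those below it, at 14.8% against 8.70%. The core and its direction were chosen after the values were seen, so no test is given. Beside the Gug pair printed with the windows, those of the next 5 strongest intronic far peaks on the arms shown give the range of the arrangement, with the core in capitals at each end, read on the plus strand and from the other strand.
Dhc36C, chr2L:17514186-17514384, plus strand: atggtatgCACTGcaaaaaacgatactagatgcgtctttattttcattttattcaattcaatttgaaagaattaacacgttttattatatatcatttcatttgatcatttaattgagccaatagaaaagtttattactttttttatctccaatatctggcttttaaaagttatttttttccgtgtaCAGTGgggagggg
tara, chr3R:16255419-16255537, plus strand: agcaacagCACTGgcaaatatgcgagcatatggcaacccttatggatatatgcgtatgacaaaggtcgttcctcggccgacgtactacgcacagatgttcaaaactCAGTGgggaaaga
AdamTS-B, chrX:5705920-5706115, plus strand: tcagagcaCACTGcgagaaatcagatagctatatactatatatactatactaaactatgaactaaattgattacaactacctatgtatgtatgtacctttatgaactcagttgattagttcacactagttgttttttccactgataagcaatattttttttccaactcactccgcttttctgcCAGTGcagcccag
rdx, chr3R:13999657-13999825, plus strand: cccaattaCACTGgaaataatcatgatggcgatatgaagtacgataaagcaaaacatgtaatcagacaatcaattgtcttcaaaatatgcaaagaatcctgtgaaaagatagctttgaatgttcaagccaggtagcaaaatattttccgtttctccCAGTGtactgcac
Prp16, chrX:14218097-14218282, plus strand: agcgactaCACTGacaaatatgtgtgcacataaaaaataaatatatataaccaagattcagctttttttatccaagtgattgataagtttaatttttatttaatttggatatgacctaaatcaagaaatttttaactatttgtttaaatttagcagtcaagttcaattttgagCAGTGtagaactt

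In the order printed, these pairs enclosed sequence of 23.1%, 46.2%, 30.6%, 33.6% and 21.9% GC and were 178, 98, 175, 148 and 165 bp apart. The tara pair, at another peak than the window above, was the closest and the richest in GC. Dhc36C encodes a dynein heavy chain, AdamTS-B a secreted metalloprotease, rdx an adaptor of a ubiquitin ligase that acts on Cubitus interruptus, and Prp16 a splicing helicase. The Dhc36C peak ranked 334, 329 and 902 in replicates 1, 2 and 3, and the rdx peak 727, 551 and 705.

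The intronic far peaks lay in long genes. A protein-coding host was found for 568 of the 577, in 317 genes, whose median length was 40723 bp against 2166 bp over all 13945 protein-coding genes. Of these hosts, 190 held 1 far peak, 127 held 2 or more and 13 held 5 or more. The summit lay in a first intron of a transcript of the host for 290 peaks (51.1%), and the introns had a median length of 24053 bp. The nearest TSS belonged to the host gene for 347 intronic peaks and to another gene for 230, so the nearest TSS often did not name the host. Over all far peaks, the nearest TSS was that of a noncoding gene for 163. Another far summit lay within 3 kb for 224 far peaks (28.5%). Summits close together were each counted as a peak in these numbers. The 2 far summits in Lrch were 213 bp apart, and the 2 in fra 204 bp.

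The 15 strongest far peaks had signals of 876 to 2191. The first of all was intergenic, between Su(z)2, a Polycomb group gene, and CG13323 at chr2R:13035169-13035505. Its signal was 2191, rank 23 of the thresholded set, and it ranked 31, 23 and 26 in replicates 1, 2 and 3. It lay 11975 bp from the nearest TSS, that of CG13323, and 9414 bp from the end of that gene, against 27370 bp from the end of Su(z)2. The second lay in the first intron of tara, which encodes a SERTA domain protein that works with trithorax group factors, with a signal of 1693 and ranks of 36, 40 and 141. Replicate 3 placed the tara peak lower than the other replicates did.

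The peak in Hr3, an ecdysone-responsive nuclear receptor gene, had a signal of 1677 and ranked 53, 64 and 43 in the replicates. CG12912 and CG46321 overlap the same position. The strongest peak of sbb, which encodes a transcriptional corepressor, had a signal of 1493 at 20112 bp from any TSS and ranked 54, 104 and 59. Gug encodes the corepressor Atrophin, and its peak had a signal of 1470 with ranks of 84, 46 and 114. In every replicate these 5 peaks ranked within the first 150. Hr4, another nuclear receptor gene, had a peak with a signal of 1151 and ranks of 108, 169 and 123.

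In the next places the replicates agreed less. The peak of simj, which encodes a subunit of the NuRD chromatin remodelling complex, had a signal of 1017 and ranked 140 and 89 in replicates 1 and 2 but 1338 in replicate 3. The peak of JIL-1, a kinase of histone H3, had a signal of 1016 and ranked 164, 168 and 191. Of the 15 strongest, 3 came from 2 intergenic intervals on arm 3L. CG44362 to CG7560 held peaks with signals of 1053 and 876, and NijA to CG43245 a peak with a signal of 1003. A peak between RFeSP and chinmo, a zinc finger gene of neuronal temporal identity, had a signal of 972 and ranked 150, 118 and 537. Raf, a kinase of the MAPK cascade, had a peak with a signal of 902 and ranks of 279, 399 and 122. The peak of fz, the Frizzled receptor gene, had a signal of 880 at 22195 bp from a TSS and ranked 283, 297 and 179. The remaining peak, in CG32486, had a signal of 1104 and ranked 168, 308 and 56.

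**Figure D4:**
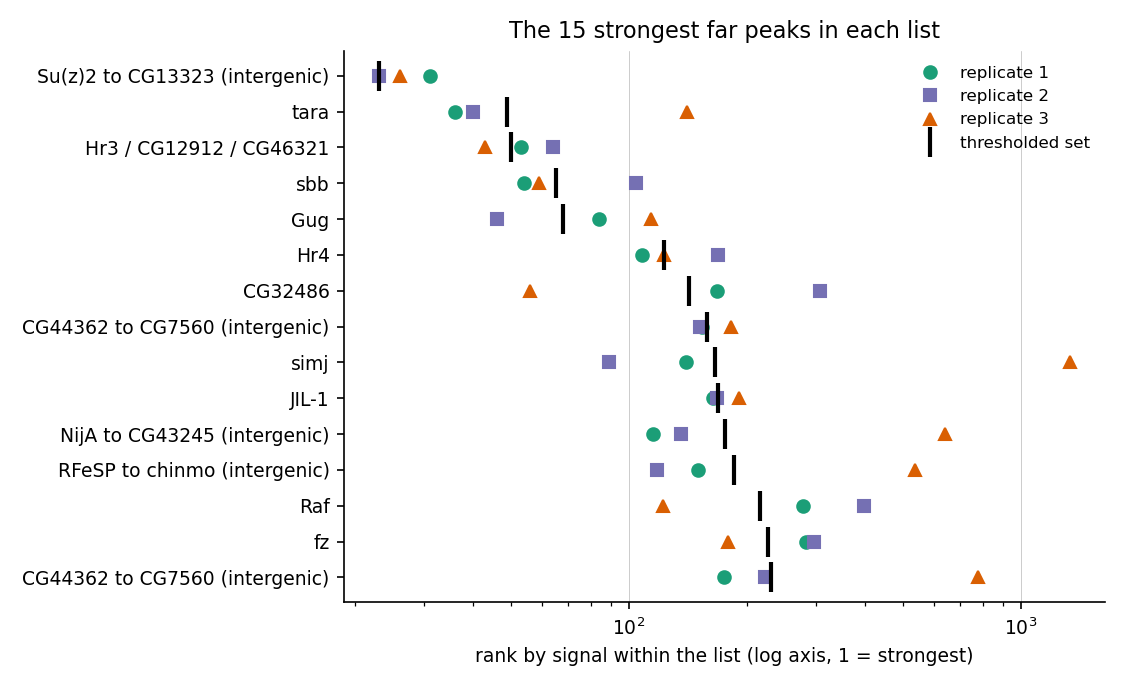
Points give the rank by signal of the 15 strongest far peaks in each replicate's own list, on a log axis where 1 is the strongest, and bars give the rank in the thresholded set. All 15 are among the 4336 strongest of every replicate, and the widest spread is that of simj, at 140, 89 and 1338.

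The farthest peaks were of middling signal. The peak in heph, which encodes a polypyrimidine tract-binding protein, lay 50430 bp from any TSS with a signal of 204 and ranked 6274, 2071 and 1623 in replicates 1, 2 and 3. A pair in hth, a homeodomain cofactor of the Hox proteins, lay 49830 and 47685 bp away and ranked 2847 and 1958 of the thresholded set. A peak between CG10651 and CG17571 lay 43191 bp away with a signal of 316, and one in mamo, a zinc finger gene, 42323 bp away with a signal of 426. The CG10651 to CG17571 peak was 1 of 5 far peaks in an annotated transposable element, and its distance leaves out transposable element TSSs. Of these farthest peaks, all but that in heph were among the 4336 strongest of all 3 replicates.

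Some hosts held several far peaks, though most far peaks lay elsewhere. The 13 genes with 5 or more held 89 of the 568 far peaks with a protein-coding host. The sbb gene held 11 over 79099 bp, with signals of 162 to 1493, of which 6 were among the strongest of all 3 replicates. The signals of its peaks thus spread over most of the range of far peaks, and its weakest ranked 5046, 3646 and 2791 in replicates 1, 2 and 3. kirre, an immunoglobulin adhesion gene of muscle founder cells, held 9 over 394149 bp, all with signals between 157 and 321. tara held 8 with signals of 162 to 1693, and 2 of these were missing from the whole list of replicate 3. fz held 8 with signals of 158 to 880.

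ftz-f1, a nuclear receptor gene, held 8 with signals of 157 to 314. rdx held 6 with signals of 165 to 677, and hth 6 with signals of 171 to 618. Antp, the Hox gene of the thoracic segments, held 6 with signals of 160 to 389. Its strongest ranked 724 and 775 in replicates 1 and 2 but 29024 in replicate 3. jing, a zinc finger gene, and SKIP held 6 each, with highest signals of 360 and 333. Snoo, a corepressor gene of the Smad pathway, held 5, all of them among the strongest of all 3 replicates, with signals of 214 to 662. Its strongest ranked 317, 853 and 341. Ten-a, a teneurin gene, and Ptp10D, a receptor tyrosine phosphatase gene, held 5 each, with highest signals of 298 and 275, and 1 and 2 of them were in all 3 replicates.

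The 208 intergenic far peaks lay in 128 intervals between protein-coding genes, with 239 flanking genes. The gap that held the peak had a median of 33349 bp and reached 121065 bp, and 53 peaks lay in gaps of over 50 kb. The nearer flanking gene presented its 5′ side to 89 peaks and its 3′ side to 119. Between NijA, a ninjurin gene, and CG43245 there were 10 far peaks in a gap of 75048 bp, with signals of 159 to 1003, of which 4 were in all 3 replicates. The gap of 47938 bp between hng3 and CG13898 also held 10, with signals of 189 to 458, and 7 of these were in all 3 replicates. CG44362 to CG7560 held 5 peaks, and 4 peaks each lay between RFeSP and chinmo, scyl and Dyro, vvl and Prat2, ems and Art9, CG4704 and klg, and exex and RNaseX25. vvl, ems and exex encode homeodomain proteins, and all 4 peaks beside ems were in all 3 replicates against 1 of 4 beside vvl and 1 of 4 beside exex. Between RFeSP and chinmo, the peaks with signals of 972 and 702 were counted apart but had the same replicate ranks (150, 118 and 537).

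Genes of several developmental lists were more often host or flank of a far peak than protein-coding genes at large, of which 527 of 13945 were (3.78%). These shares can follow from gene length and spacing, which the rule selects, and no share matched for length was computed. They are descriptions with no test. The lists had median gene lengths of 1318 to 45091 bp, against 2166 bp over all protein-coding genes. The median was 27323 bp for nuclear receptor and ecdysone response genes and 21753 bp for Notch, Wnt and planar polarity genes. It was 45091 bp for axon guidance and 37214 bp for synapse genes. Proneural and neurogenin-family bHLH genes had 2014 bp and ribosomal protein genes 1318 bp. Nuclear receptor and ecdysone response genes numbered 8 of 22 (36.4%), and beside Hr3 and Hr4 they included Eip74EF (strongest signal 489) and Eip75B (424), early genes of the ecdysone response. Notch, Wnt and planar polarity genes numbered 11 of 31 (35.5%). N, the Notch receptor, had a peak with a signal of 743 at 10622 bp from a TSS that ranked 505, 465 and 236, and mam, its coactivator, held 3 with a highest signal of 467. Wnt4, a ligand, held 3, with a highest signal of 192, and flanked 2, with a highest signal of 359.

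Patterning and cell identity factors numbered 26 of 85 (30.6%). Beside chinmo and hth, ush, a cofactor of GATA factors, held 3 with a highest signal of 499, and pnt, an ETS factor of the EGF pathway, held 1 with a signal of 489. Trachea, gut and epidermis genes numbered 6 of 21 (28.6%), led by pyd, a junction scaffold (537), bnl, the FGF ligand of the trachea (242), fkh, a forkhead factor of the gut (210), and sdt, a polarity scaffold (196). Axon guidance and neuronal adhesion genes numbered 18 of 64 (28.1%). Fas3, a homophilic adhesion protein, held 3 with a highest signal of 560, NetA, a Netrin ligand, 3 with 504, fra, the Netrin receptor, 2 with 467, and caps, a leucine-rich repeat adhesion protein, 2 with 360. EGF, FGF, BMP and Hedgehog genes numbered 7 of 27 (25.9%), with peaks beside ptc, the Hedgehog receptor (674), in dpp, the BMP ligand (463), in vn, an EGF receptor ligand (444), and beside pyr, an FGF ligand (274). The far peak inside pyr had a signal of 157.

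Muscle and mesoderm genes numbered 5 of 27 (18.5%), with mew and if, which encode integrin subunits (518 and 326), how, an RNA-binding protein (458), and kirre (321). Synapse and excitability genes numbered 7 of 42 (16.7%). Their highest signals were lower, at 295 in cpo, an RNA-binding protein, 274 in rg, a kinase anchoring protein, 237 in dnc, a cAMP phosphodiesterase, and 234 in fne, a neuronal RNA-binding protein. Of proneural and neurogenin-family bHLH genes, 1 of 16 (6.25%) was a host or flank: net, whose peak had a signal of 179 and ranked 2234, 6282 and 6223. Of cytoplasmic ribosomal protein genes, 1 of 93 (1.08%) was, RpL22-like, with a signal of 154. Chromatin regulators, a list added after the values were seen, numbered 10 of 58 (17.2%), led by Su(z)2, sbb, Gug and simj. Su(z)2 is the farther of the flanking genes of its strongest peak.

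**Figure D5:**
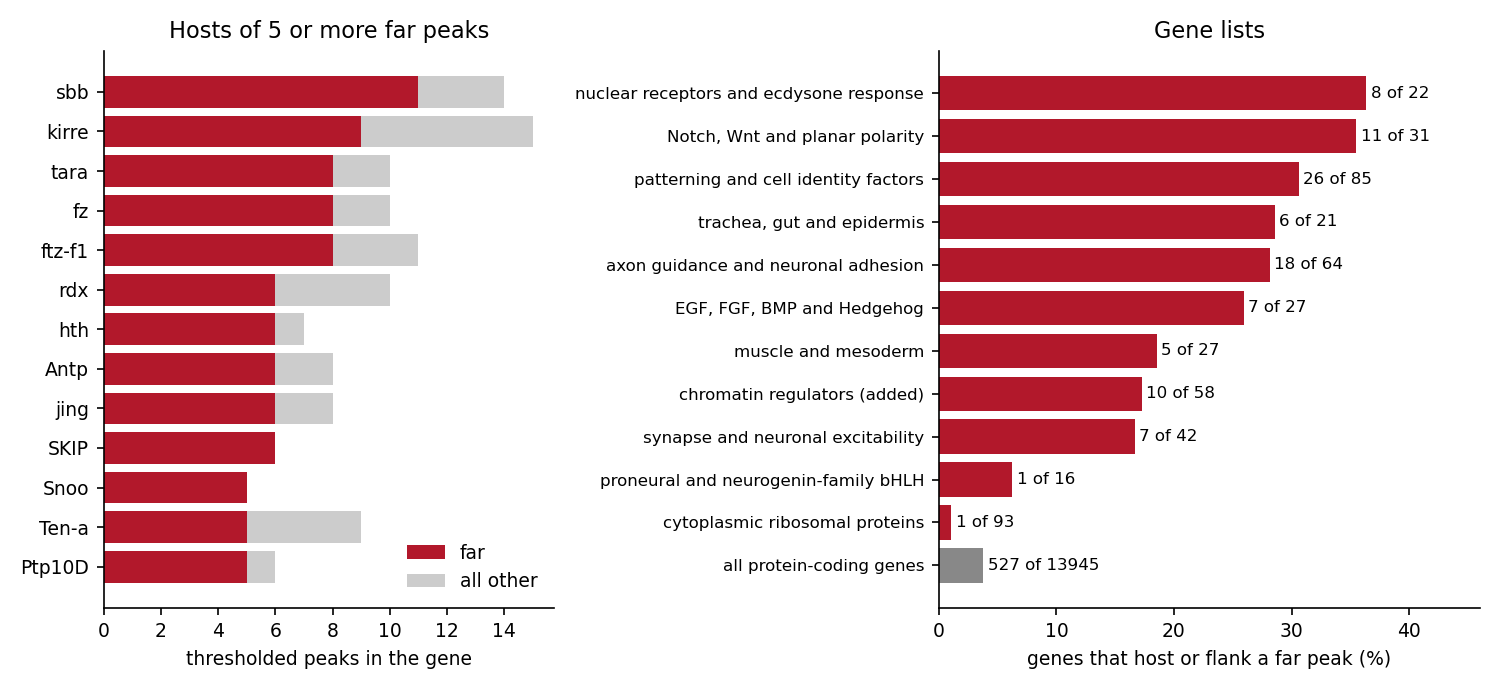
The left panel gives the thresholded peaks inside each of the 13 genes that host 5 or more far peaks, with far peaks in red and all others in grey, from 11 far peaks in sbb to 5 in Ptp10D. The right panel gives, for each gene list, the percentage of genes that host or flank a far peak, from 36.4% of nuclear receptor and ecdysone response genes to 1.08% of ribosomal protein genes, with 3.78% of all protein-coding genes at the bottom.

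The tap gene itself had no far peak. The single thresholded peak near it lay 4713 bp from its TSS and 2380 bp from the TSS of a nearer gene, with a signal of 248 and rank 2172 of the thresholded set.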

How the data were processed

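Coordinates are those of dm6, per the labels. The deposited notes say that peaks were called on each replicate and on the pool, against a control alignment, and that an irreproducible discovery rate threshold gave the smaller set. For the aligner, the caller and that threshold, nothing is given in the sources used here. Each deposited peak carries the authors' signal and −log10 q-value, used only to describe and rank peaks within a list. The pooled and replicate lists hold 30000 peaks each, so depth is unknown and intervals cover the sampling of peaks only. The labels call the replicates biological and say no more of their origin.

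TSSs, exons and genes came from Ensembl release 115 (FlyBase 6.54) and sequence from RefSeq (python 3.11.15, scipy 1.17.1, numpy 2.4.6, pandas 2.3.3). Two-sided Fisher's exact tests compared counts of peaks, with Benjamini-Hochberg adjustment over 13 class comparisons, over 4 tests for recovery in the replicates, or over 2080 hexamers, and exact McNemar tests compared summits with flanks. On simulated data, 58% of hexamers planted at 1.5-fold and 93% at 2-fold were recovered by Fisher's test, and 40% and 70% by McNemar's test.

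The named peaks were the 15 strongest, the 5 farthest, hosts of 5 or more and up to 4 members of each list. Named hexamers were the E-boxes, a set list and the 5 largest and smallest ratios called in at least 5% of far summits or compared windows. Of the list symbols, 6 had no match in the annotation. Members and lists were chosen with earlier results of these data known. Alternatives were other distance limits, TSS sets, windows, references and signal levels, and each replicate left out.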

Additional observations from a re-analysis of the deposited data

How the results depend on the processing

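The far share moved with the definition of a far peak. It was 27.7% at 3000 bp, 8.10% at 10000 bp, 22.9% with the TSSs of protein-coding genes only, 27.2% with gene 5′ ends only and 16.1% with transposable element TSSs counted, the last chosen after seeing the data. The mean over replicates was 14.5% in the 2000 strongest peaks and 18.8% in the 8000 strongest, and 16.3 to 16.8% with 1 replicate left out. The lower far share of thresholded than of weaker peaks and the lower signal of far peaks passed the test under all alternatives run. Without 1 replicate, the signal difference in the replicate lists ranged over −7.77 to −6.64 points. The lower presence of far peaks in all 3 replicates (45.9%) kept its call against nearer distal peaks and with summits matched within 500 bp. It lost the call at 3000 bp (49.04%), at 10000 bp (45.9%), with protein-coding TSSs (46.5%), with transposable element TSSs (45.9%), against promoter peaks (45.9%) and within 100 bp (42.3%). It turned to the far peaks' favour in the whole lists (94.0%) and within the stronger (84.6%) and weaker (18.5%) peaks. Without 1 replicate it was 52.2 to 65.0%, past the threshold only without replicate 3. At 3000 bp, 69.7% of far peaks were found in replicate 3, now past the threshold. The share below median GC, never past the threshold, changed sides at 3000 bp (49.5%), with transposable element TSSs (50.1%), against promoter peaks (48.5%) and in 50 bp windows (48.3%). Causes of these changes were not tested.

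Hexamer counts moved with the window, the flank distance, the peaks compared and the peaks kept. Far against other peaks, 4 higher and 6 lower became 0 and 0 within 50 bp, 26 and 12 within 150 bp, 0 and 0 against nearer distal peaks, 42 and 60 against promoter peaks, 0 and 0 among stronger peaks, and 0 to 3 and 0 to 2 without 1 replicate. The stronger and leave-one-out counts hold fewer peaks and also other peaks by signal or recovery, and these were not told apart. Far summits against flanks, 232 higher and 318 lower became 355 and 564 with flanks at 300 bp, 206 lower at 1000 bp, 102 and 79 among stronger peaks, and 82 to 202 and 54 to 270 without 1 replicate. At 10000 bp, an alternative chosen after seeing the data, 247 genes were hosts or flanks in place of 527, since fewer peaks qualify. With flanking genes taken by nearest TSS the count was 529. Among values for single hexamers and words, 416 kept their side of the threshold, 91 lost the call, 13 gained it (among E-boxes CAGATG and CAGCTG within 150 bp and against promoter peaks, CAGATG against flanks at 300 bp and CATATG at 1000 bp), 2 moved and 0 reversed with a call. Changes of direction without a call in either setting were counted among the 416. No paired analysis was possible because all 3 samples form 1 group, so no groups could be blocked by replicate number. The sign-flip and McNemar tests pair classes of peaks within a replicate or windows within a peak.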
